A study of Mus musculus with 4 samples.

Results

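Tetraspanin genes were examined in a DNase-seq series on lymphoid tissue inducer (LTi) cells, innate lymphocytes that start the building of lymph nodes and Peyer's patches. DNase-seq maps accessible chromatin, since the nuclease DNase I cuts open DNA first. The members were the mouse RefSeq protein-coding genes named Tspan plus a number, together with Cd9, Cd37, Cd53, Cd63, Cd81, Cd82 and Cd151. This gave 27 of 21900 protein-coding genes. Their islands, the accessible regions of the deposited table, were those whose nearest protein-coding gene end, within 50 kb, belonged to a member. This gave 36 of 16584 islands, and 18 of the 27 members had at least 1. The islands were thus selected on their position in the table, their presence being the measured value that chose them, so presence is described below and not tested.

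The Tcf7-KO group carried floxed Tcf7 (Tcf7fl/fl), the gene of the transcription factor TCF-1, together with a lineage-restricted Cre recombinase that deletes it. The Ctrl group was Tcf7+/+. Each group had 2 libraries of 300 sorted cells from Peyer's patches of C57BL/6 mice, gated as CD127+ and CCR6+ and as negative for lineage markers, KLRG1, NK1.1 and NKp46. The sources used here do not state the age of the mice or whether animals were pooled. The deposited table gives 2 read counts per island, called peak and control in its header, and neither the header nor a label names the genotype or library behind them. The difference between Tcf7-KO and Ctrl was therefore not analysed here, values per library were not used, and every ratio below compares the sides of the table.

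Tetraspanins are small membrane proteins that cross the membrane repeatedly and hold integrins, receptors and proteases together in membrane microdomains. Leukocytes carry several of them. CD37 and CD53 are largely restricted to leukocytes, CD81 is present on many cell types, CD82 and CD151 bind integrins, and CD9 and CD63 are widely used markers of extracellular vesicles. The TspanC8 members bind the protease ADAM10 and direct its maturation and its choice of substrates.

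Islands were read as places of accessible chromatin and not as expression. The lowest peak-side count of any island in the table was 8 reads, so a gene without an island was not shown to be closed. As a check of the label, 11 of 12 LTi and group 3 innate lymphoid cell genes had an island, all but Ccr6, against 1 of 7 T cell genes, 2 of 6 B cell genes, 1 of 5 myeloid genes, 4 of 6 epithelial and stromal genes and 1 of 6 type 1 innate lymphoid and NK genes. The part of other cell types in the tetraspanin islands was not tested.

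An island was present for a larger share of tetraspanin genes than of all genes, and the islands had a median fold close to that of the table and somewhat fewer reads. The 18 members with an island were 66.7% of the 27, and over all 21900 protein-coding genes the share was 49.2%. A gene-end island, within 1 kb of either end of the gene, was present for 16 members (59.3%), and for 40.4% of all genes. RefSeq gives start sites for 26 members, and at least 1 start lay inside an island in 14 of them (53.8%), against 46.3% of the 17492 protein-coding genes with a start. The members with an island had a median length of 29.6 kb, those without one 16.6 kb and all protein-coding genes 17.1 kb, so gene length differed along with presence. The part of gene length in the presence of islands was not tested.

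By role, islands were present for 7 of 8 genes of the leukocyte group (the CD-named genes and Tspan32), 5 of 6 TspanC8 genes and 6 of 13 other Tspan genes. Without an island were Cd63 in the first group, Tspan10 in the second, and Tspan1, Tspan6, Tspan7, Tspan8, Tspan11, Tspan12 and Tspan31 in the third. These small groups were set by name and function with earlier results known, and the difference between them was not tested. Of the members with an island, 12 had 1 and 6 had 2 or more. Cd82 had 7, Tspan2 had 5, Tspan14 had 4, Cd9 and Tspan18 had 3 each and Tspan4 had 2.

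**Figure D1:**
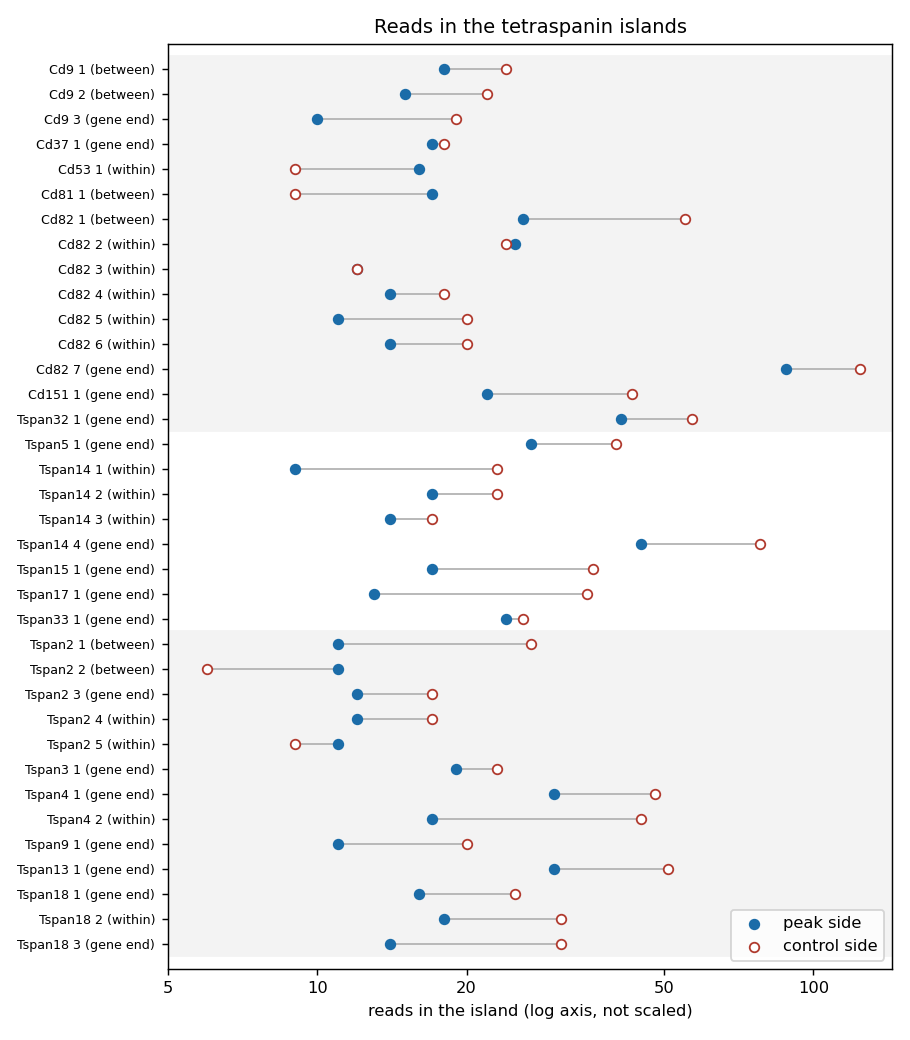
Reads of the 36 tetraspanin islands on a log axis, with peak-side reads as filled points and control-side reads, before scaling, as open points; rows are numbered along the chromosome within a gene and shaded by role (leukocyte group at the top, TspanC8 in the middle, other Tspan genes at the bottom). The gene-end island of Cd82 holds the most reads on both sides, 88 and 124.

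Together, the 36 islands had 724 peak-side and 1102 control-side reads. To give a fold, the control-side reads were multiplied by 0.345, the factor behind the authors' deposited fold, and the peak-side reads were divided by the product. Each fold is followed by its exact (Clopper-Pearson) 95% counting interval. No replicate spread enters these intervals, and they treat each read as a separate molecule. Whether PCR copies of a molecule were removed before counting is not known here. Summed over the islands the fold was 1.91 (1.73 to 2.09), beside 1.91 over all islands, and the median fold was 2.00 (interquartile range 1.58 to 2.39), beside 2.01 (1.61 to 2.62). The median island had 16.5 peak-side and 23.5 control-side reads, beside 18 and 27 for all islands. At least 20 peak-side reads were held by 10 of the 36 (27.8%), against 43.6% of all islands. The median width was 2200 bp, beside 1800 bp, and per kb of island the median was 8.66 peak-side reads, beside 10.6. Across the 36 islands the reads on both sides followed each other (Spearman rho 0.70, beside 0.84 over all 16584 islands). This describes counts over the same islands, so both sides share the island width. Whether they share libraries is not known here.

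Islands with an FDR under 0.05 in the authors' deposited table are named called islands. By that rule 26 of the 36 islands were called (72.2%), while 82.3% of all islands were. Each of the 36 had a fold over 1, as did 98.3% of all islands. With the control side scaled to the summed reads of all islands, 16 of the 36 had a fold under 1 and 3 were called. At that scaling 9.19% of all islands were called and their median fold was 1.05. The share of all islands with a fold under 1 is not given here. The counting interval of the fold lay above 1 for 19 of the 36 islands (52.8%) and for 57.7% of all islands, so a call in the deposited table did not always come with an interval above 1. At least 1 called island was present for 15 of the 18 members (83.3%) in the authors' deposited table, beside 85.6% of all genes with an island. The exceptions were Tspan9, Tspan15 and Tspan17. Nearest to the threshold in the authors' deposited table were Cd151 (FDR 0.0369) inside it, and an island downstream of Cd82 (0.0570), one inside Cd82 (0.0581) and the gene-end island of Tspan9 (0.0581) outside it.

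Most tetraspanin islands lay at gene ends or inside genes. At a gene end were 17 islands (47.2%), elsewhere within a gene 13 (36.1%) and between genes 6 (16.7%). For all islands 55.7%, 24.3% and 20.0% lay in these places. Gene-end islands of tetraspanins had a median of 19 peak-side and 35 control-side reads and a median fold of 1.81, beside 23 and 37 reads and 1.86 for all gene-end islands. Of these 17, 12 were called in the authors' deposited table (70.6%), against 80.8% of all gene-end islands. Those within genes had 14 and 20 reads and a median fold of 2.14, beside 14 and 18 reads and 2.34. Those between genes had 16 and 23 reads and a median fold of 2.08, beside 13 and 17 reads and 2.32. Nearest to the gene-end limit of 1 kb were an island of Tspan18 at 841 bp inside it and one of Tspan2 at 2.23 kb outside it. The farthest island inside the window of 50 kb lay 34.5 kb from the end of Cd9. An island inside Tspan9 lay beyond the window, 73.0 kb from an end of that gene.

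**Figure D2:**
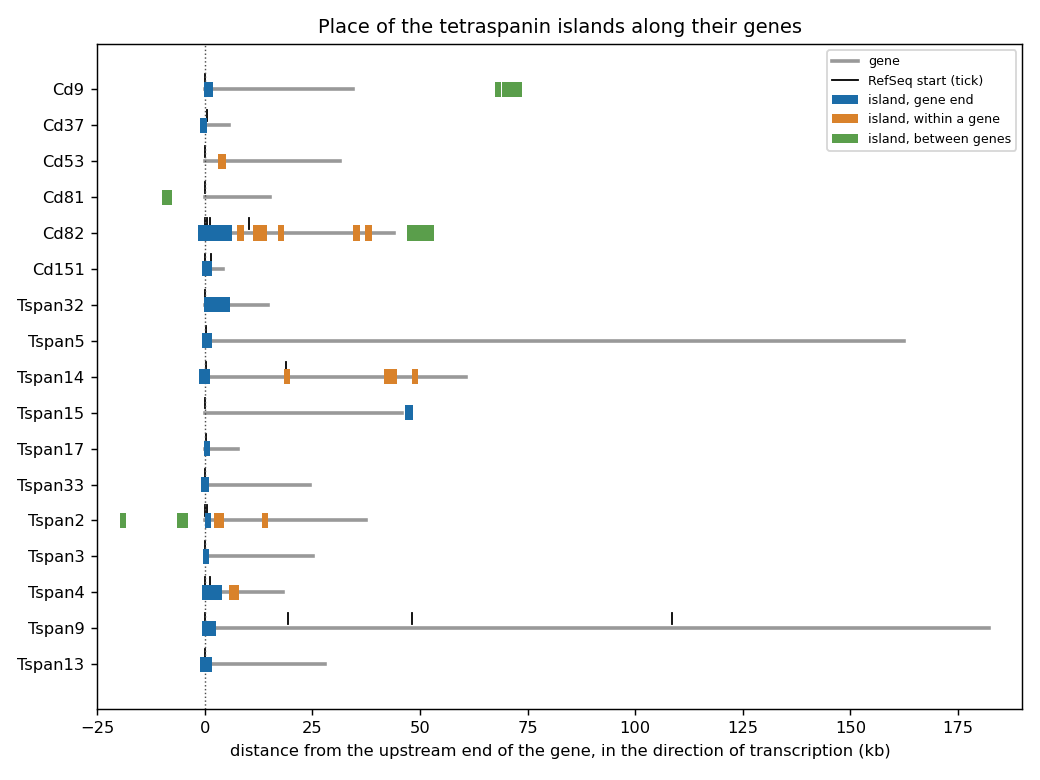
Islands (coloured bars) along the 17 members with an island and a known strand, as distance in kb from the upstream end of the gene in the direction of transcription; grey lines are genes, ticks are RefSeq starts, and very narrow islands are drawn wider to stay visible. Blue gene-end islands stand at the upstream end of every gene shown except Cd53, Cd81 and Tspan15. Cd82, Tspan2, Tspan14 and Tspan4 carry further islands inside the gene. The island inside Tspan9 that lies beyond the 50 kb window is not drawn.

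Cd82 had the most extended accessible region of the family. The gene, also known as KAI1 and named as a metastasis suppressor in human tumours, had 7 islands with 190 peak-side and 273 control-side reads in all and a summed fold of 2.02 (1.67 to 2.44). Of all 10764 genes with an island, 28 (0.260%) had 7 or more. The island over its upstream end (chr2:93456601-93464600) was 8.0 kb wide and covered 3 of its 4 RefSeq starts. It held 88 and 124 reads, with a fold of 2.06 (1.55 to 2.73). Counting itself, 27 of all islands were at least as wide and 68 had at least as many peak-side reads. Inside the gene, an island 26.9 kb downstream of the nearest start (chr2:93424201-93425800) held 25 and 24 reads and had a fold of 3.02 (1.66 to 5.53). Its neighbour at chr2:93426801-93428600 held 12 reads on each side, and its fold was 2.90 (1.19 to 7.06). The other 3 islands inside Cd82 had 11 to 14 peak-side and 18 to 20 control-side reads, with folds of 1.60 to 2.26. Between genes, 3.10 kb beyond the downstream end (chr2:93409801-93416000), an island of 6200 bp held 26 and 55 reads, a fold of 1.37 (0.825 to 2.22), without a call in the authors' deposited table. The counting intervals of all 7 islands overlap each other.

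Tspan18, a regulator of calcium entry in endothelial cells, is the neighbour of Cd82 at a gap of 84.6 kb and had 3 islands. They held 16 and 25 reads, 18 and 31 reads, and 14 and 31 reads, with folds of 1.86 (0.926 to 3.62), 1.68 (0.887 to 3.11) and 1.31 (0.644 to 2.54). The first lay 841 bp inside one end of the gene and the third over the other end. Its transcription start was not placed here. None of the intervals lay above 1.

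The leukocyte-restricted genes Cd37 and Cd53 each had 1 island, in different places. At Cd37 the island lay over the upstream end (chr7:45238801-45240400) and held 17 and 18 reads, with a fold of 2.74 (1.33 to 5.63). At Cd53 no island covered the start. Its island lay inside the gene, 2.95 kb downstream of the start (chr3:106785201-106787200), and held 16 and 9 reads, with a fold of 5.16 (2.15 to 13.2). With it, 614 of the 16584 islands had a fold as large or larger, although the interval spans a wide range at these counts.

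Cd81 resembled Cd53 in that its start lay outside any island. The nearest one was 7.55 kb upstream of the start (chr7:143042801-143045200), between genes, and held 17 and 9 reads, with a fold of 5.48 (2.31 to 13.9), the largest among tetraspanin islands. At its other end, an island (chr7:143067201-143070000) reached into both Cd81 and its neighbour Tssc4. It was assigned to Tssc4, whose end lay nearer its middle, and it held 37 and 65 reads, with a fold of 1.65 (1.07 to 2.51). Tspan32, a tetraspanin of blood cells, lies 33.3 kb from Cd81 on the same chromosome. Its single island began at the upstream end of the gene and ran 6.0 kb (chr7:143004801-143010800), and 137 of all islands, itself included, were at least as wide. It held 41 and 57 reads, the third highest peak-side count of the family, and its fold was 2.09 (1.36 to 3.17).

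Cd9 had a gene-end island with few reads and a distant pair with more. The one over its start (chr6:125492801-125495000) held 10 and 19 reads, for a fold of 1.53 (0.634 to 3.45), without a call in the authors' deposited table. The distant pair lay downstream, 33.5 and 34.5 kb from the gene (chr6:125426401-125426800 and chr6:125421001-125425800). They held 15 and 22 reads and 18 and 24 reads, with folds of 1.98 (0.954 to 3.99) and 2.18 (1.11 to 4.18). At that distance, the assignment to Cd9 rests on the nearest gene end alone. Cd151, which binds laminin-binding integrins, had 1 island over both of its starts (chr7:141466801-141469000) with 22 and 43 reads, which gave a fold of 1.48 (0.845 to 2.54). Cd63, a protein of late endosomes and vesicles, had none, and the closest island, assigned to Bloc1s1, lay 10.2 kb from the gene with 15 and 41 reads.

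Of the TspanC8 genes, Tspan14 had the most reads. Its gene-end island (chr14:40965801-40968400) held 45 and 78 reads, the second highest peak-side count of the family, and had a fold of 1.67 (1.13 to 2.45). A second island, of 800 bp and inside the gene (chr14:40947601-40948400), covered the other RefSeq start of Tspan14 and held 14 and 17 reads, with a fold of 2.39 (1.09 to 5.15). The other islands of the gene, 22.8 and 29.6 kb downstream of that start, held 17 and 23 reads and 9 and 23 reads, with folds of 2.14 (1.08 to 4.19) and 1.13 (0.462 to 2.55).

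The remaining TspanC8 genes had at most 1 island each. Tspan33 had 24 and 26 reads over its start (chr6:29693401-29695200), with a fold of 2.68 (1.47 to 4.85). Tspan5 had 27 and 40 reads over its start (chr3:138741201-138743400), with a fold of 1.96 (1.16 to 3.27). Tspan17 had 13 and 35 reads over its start, and its fold of 1.08 (0.523 to 2.09) was the smallest of the family. The island of Tspan15 lay 596 bp beyond the downstream end of the gene, 46.4 kb from the start, and held 17 and 36 reads, with a fold of 1.37 (0.721 to 2.50). No island covered the start of Tspan15, and none was assigned to Tspan10. Over the 5 TspanC8 genes with islands the reads summed to 166 and 278, a fold of 1.73 (1.42 to 2.11), and over the leukocyte group to 346 and 474, a fold of 2.12 (1.84 to 2.44). Cd82 alone held 190 and 273 of the reads of the leukocyte group. Over the other Tspan genes the reads summed to 212 and 350, a fold of 1.76 (1.47 to 2.09). The intervals of these groups overlap. The gene of ADAM10, the partner of the TspanC8 proteins, had 1 gene-end island with 60 and 77 reads, its fold being 2.26 (1.59 to 3.21).

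Among the other Tspan genes, Tspan2, best known from oligodendrocytes, had 5 islands of 11 or 12 peak-side reads each. The one 3.97 kb upstream of the first start (chr3:102728201-102730800) held 11 and 6 reads, with a fold of 5.32 (1.80 to 17.5). The island at the gene end began 31 bp inside the gene and covered the second of its starts. It held 12 and 17 reads, as did the next one inside the gene, with a fold of 2.05 (0.892 to 4.55). Farther in, 13.2 kb from the nearest start, an island of 600 bp held 11 and 9 reads, with a fold of 3.55 (1.34 to 9.68). The farthest upstream held 11 and 27 reads, with a fold of 1.18 (0.529 to 2.46). At such counts these folds overlap in their intervals.

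Tspan4, which builds migrasomes, the vesicles that migrating cells leave behind, had 30 and 48 reads in an island of 4.6 kb (chr7:141474601-141479200), with a fold of 1.81 (1.11 to 2.92). The island also covered an end of the neighbouring gene Polr2l, an RNA polymerase subunit, so its reads cannot be divided between them. Cd151 ends 3.75 kb from Tspan4. A second island inside Tspan4 held 17 and 45 reads, with a fold of 1.10 (0.588 to 1.95). Tspan13 had 30 and 51 reads over its start (chr12:36040801-36043600), with a fold of 1.71 (1.05 to 2.73), and Tspan3 had 19 and 23 reads over its start, in an island of 800 bp (chr9:56160401-56161200), with a fold of 2.40 (1.23 to 4.60).

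Tspan9, a tetraspanin of platelets, had 11 and 20 reads over its upstream end, with a fold of 1.60 (0.690 to 3.49). The island beyond the window (chr6:128034401-128035600) covered the innermost of its 4 RefSeq starts and held 11 and 4 reads, with a fold of 7.98 (2.36 to 34.3). Like the second island of Tspan14, it marks an internal start by position only. The other 2 starts of Tspan9 lay outside islands.

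**Figure D3:**
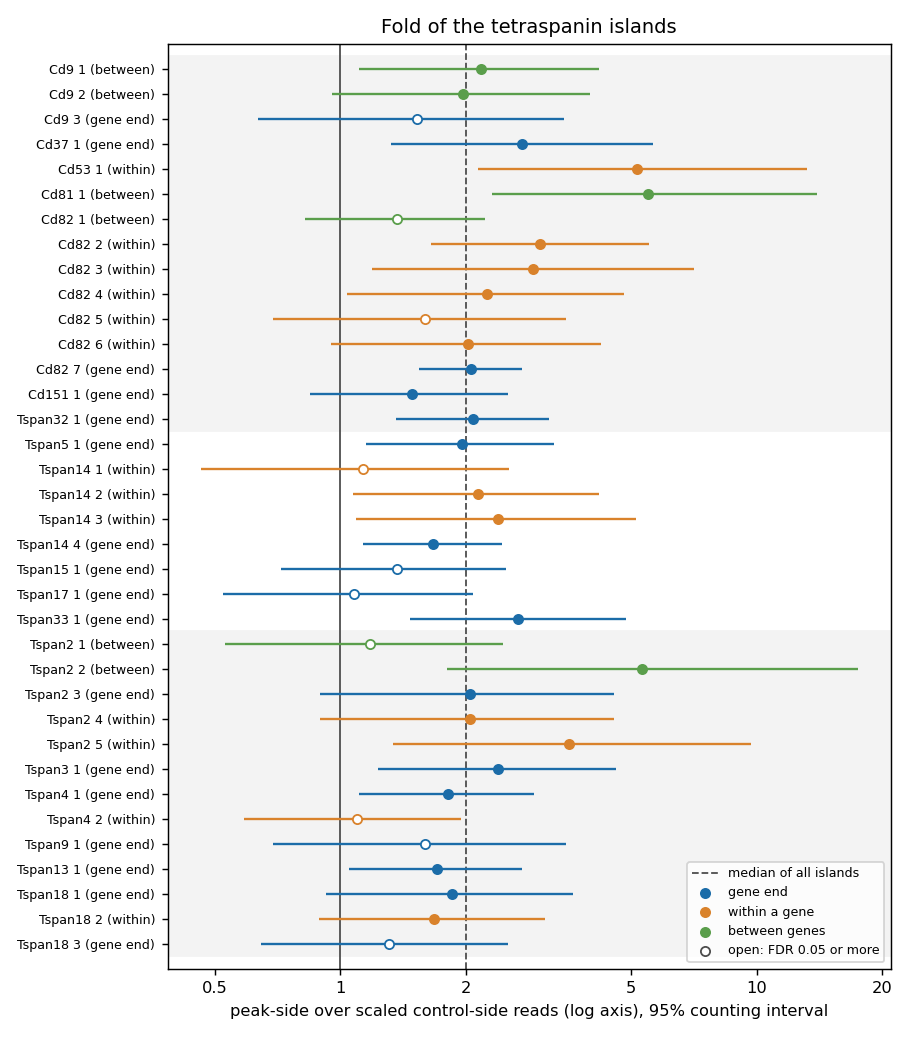
Fold of each tetraspanin island (peak-side over scaled control-side reads, log axis) with its exact 95% counting interval, coloured by place; open points have an FDR of 0.05 or more in the authors' deposited table. All 36 points lie above 1 at this scaling, and most intervals include the median of all islands, 2.01, drawn as a dashed line. When the control side is scaled to the summed reads of all islands, 20 of 36 lie above 1, and the median of all islands is 1.05.

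Members without an island differed in how far the nearest accessible region lay. For 4 of the 9 an island of another gene lay within 3.09 to 10.5 kb of the gene. That of Cdk4 lay 3.09 kb from Tspan31, a gene amplified together with CDK4 in human sarcomas, with 41 and 40 reads. Those nearest to Tspan1, Cd63 and Tspan10 lay at 9.88, 10.2 and 10.5 kb. For the other 5 the nearest lay 69.0 kb (Tspan12), 81.4 kb (Tspan11), 121 kb (Tspan7), 157 kb (Tspan6) and 430 kb (Tspan8) away. Tspan12 assists Norrin signalling through Frizzled-4 in the retina, Tspan8 is known from epithelia and their tumours, and Tspan7 is linked to X-linked intellectual disability in humans. Fzd4, the gene of Frizzled-4, had 1 gene-end island with 22 and 46 reads, for a fold of 1.39 (0.795 to 2.35).

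**Figure D4:**
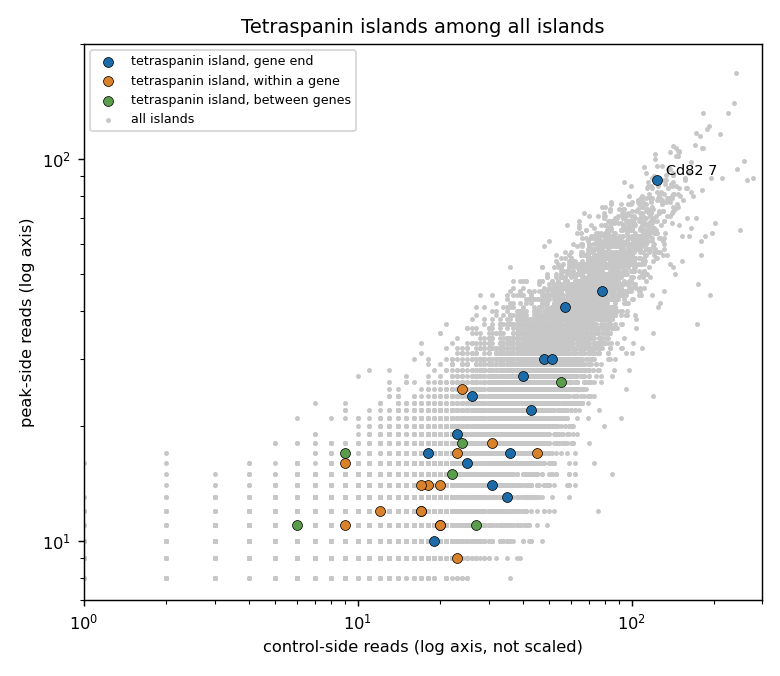
Peak-side against control-side reads (log axes, before scaling) for the tetraspanin islands (coloured by place) and for all islands that fall within the axes (grey). Tetraspanin islands lie within the cloud of all islands, with the gene-end island of Cd82 near its upper end at 88 and 124 reads.

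The sequences before 4 starts are shown. They belong to the 4 members whose gene-end island covers the RefSeq promoter window and holds the most peak-side reads. Tspan32, with 41 peak-side reads, was left out because its window begins at chr7:143004796, before its island at chr7:143004801. Its 250 bases held no GGGCGG, 2 matches to TGTGGT, 1 to CCGGAAG and 1 to CAGCTG. Reads were counted per island, and the islands of these 4 members are 2600 to 8000 bp wide. The reads are thus not placed within the printed bases. Each run is the 250 bases before the start, from RefSeq on build GRCm38.p6, 5′ to 3′ on the strand of the gene. Capitals mark matches to GGGCGG (the GC box bound by Sp1-type factors) or CCAAT (the CCAAT box), on either strand. The runs lie at chr2:93462951-93463200 (Cd82, minus strand), chr14:40966897-40967146 (Tspan14, minus strand), chr7:141474986-141475235 (Tspan4, plus strand) and chr12:36042479-36042728 (Tspan13, minus strand).
Cd82: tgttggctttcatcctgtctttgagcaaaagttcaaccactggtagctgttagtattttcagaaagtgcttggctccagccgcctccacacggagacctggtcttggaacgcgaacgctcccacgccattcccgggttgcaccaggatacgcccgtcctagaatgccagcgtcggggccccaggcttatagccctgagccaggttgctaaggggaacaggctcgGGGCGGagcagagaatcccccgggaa
Tspan14: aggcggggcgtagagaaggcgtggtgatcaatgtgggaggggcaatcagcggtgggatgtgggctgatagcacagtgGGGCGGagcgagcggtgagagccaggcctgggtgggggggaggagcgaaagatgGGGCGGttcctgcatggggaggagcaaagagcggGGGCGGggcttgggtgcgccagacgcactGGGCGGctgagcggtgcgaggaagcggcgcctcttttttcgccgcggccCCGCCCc
Tspan4: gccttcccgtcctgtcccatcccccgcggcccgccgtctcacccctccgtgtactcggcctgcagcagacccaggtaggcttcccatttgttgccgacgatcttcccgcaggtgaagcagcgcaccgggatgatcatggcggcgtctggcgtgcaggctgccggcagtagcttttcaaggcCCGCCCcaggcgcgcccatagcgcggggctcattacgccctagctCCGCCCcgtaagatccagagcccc
Tspan13: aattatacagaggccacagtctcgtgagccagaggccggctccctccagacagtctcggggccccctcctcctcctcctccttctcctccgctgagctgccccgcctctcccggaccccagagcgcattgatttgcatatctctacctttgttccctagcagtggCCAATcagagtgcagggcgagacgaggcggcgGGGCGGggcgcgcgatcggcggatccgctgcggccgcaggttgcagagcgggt

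In these runs the GC box occurs once before Cd82, 5 times before Tspan14, 2 times before Tspan4 and once before Tspan13, where a CCAAT box also stands. No match to the other motifs searched was found in them. Their share of G and C was 58.4%, 69.6%, 68.0% and 66.0%, with 14, 22, 24 and 21 CpG pairs.

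Over the 36 RefSeq start windows of 26 members, the GC box was found in 16 (44.4%), against 42.6% of the 21263 windows of protein-coding genes. CCAAT was found in 11 (30.6%, all windows 35.4%), TGTGGT (RUNX core) in 6 (16.7%, 12.4%) and CAGCTG (E box) in 6 (16.7%, 12.1%). AGGTCA (an element of ROR factors) was found in 3 (8.33%, 12.8%), CCGGAAG (ETS core) in 2 (5.56%, 8.98%), CACGTG (E box) in 2 (5.56%, 6.63%) and TGACTCA (AP-1) in 1 (2.78%, 4.06%). CTTTGAT or CTTTGAA, the core bound by TCF-1 and its relatives, was found in none, and in 6.73% of all windows, which says only that these letters do not stand in these 250 bases. Both strands were searched, and a match is a description of letters and not a binding site.

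CpG content went with the place of islands in the family as it did over all genes. The ratio of observed to expected CpG had a median of 0.661 in the 20 member windows whose start lay inside an island and 0.324 in the 16 others, beside 0.782 and 0.256 over all windows. A ratio of at least 0.6 was found in 11 of the 20 (55.0%) and 4 of the 16, beside 77.8% and 17.9% over all windows. The other 9 of the 20 lay under 0.6. The lowest was Tspan32, with 1 CpG and a ratio of 0.0518 under an island of 41 peak-side reads, followed by second or internal starts of Tspan14 (0.170), Cd151 (0.194), Tspan4 (0.321) and Tspan9 (0.363), and by Cd37 at 0.378. In the other direction, the starts of Tspan15, Tspan6 and Tspan7 had ratios of 0.984, 0.683 and 0.677 without an island, as did the first start of Tspan2 at 0.602. Windows of one gene are not independent of each other.

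**Figure D5:**
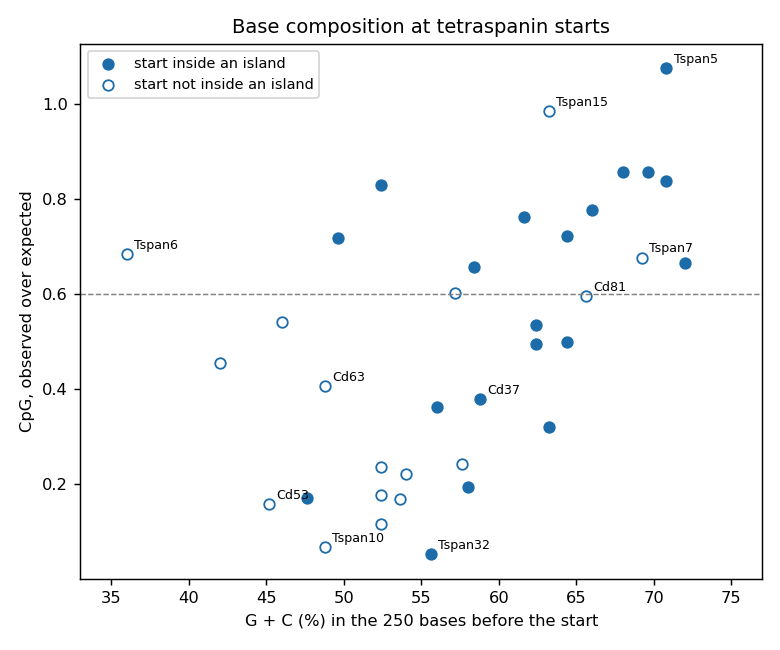
Share of G and C (percent) against the ratio of observed to expected CpG in the 250 bases before each of the 36 RefSeq starts of tetraspanin genes, filled where the start lies inside an island and open where it does not; the dashed line is at 0.6. Tspan32 stands lowest, at 0.0518, among the filled points, and Tspan15, at 0.984, highest among the open ones.

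Among genes that encode partners of tetraspanins, a list of 27 integrins, proteases, immunoglobulin-family and cytoskeletal linkers and vesicle proteins, 22 had an island, beside 49.2% of all genes. Of these, 20 had a called one in the authors' deposited table, beside 85.6% of all genes with an island. The list was chosen with earlier results known and holds many widely expressed genes. Igsf8, a direct partner of CD9 and CD81, had 61 and 102 reads, for a fold of 1.73 (1.24 to 2.41), while Ptgfrn, its relative, had no island. Among integrin genes, Itga4 had 35 and 40 reads (fold 2.54, 1.57 to 4.10) and Itgb1 had 20 and 32 reads (fold 1.81, 0.983 to 3.27). Cd4, Vcam1 and Tsg101 were also among those without an island. The tetraspanin-fold genes with other names, Upk1a, Upk1b, Prph2 and Rom1, which serve the urothelium and the photoreceptor, had none either.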

How the data were processed

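DNase-seq was run on 4 libraries, 2 Tcf7-KO and 2 Ctrl, with 0.3 U of DNase I and 5 minutes of digestion per the labels' protocols. Per the submitters' processing notes, Bowtie2 2.4.2, SICER 2.0 and build mm10 were used. Per the file headers, islands carry a peak-side and a control-side read count, a p-value, a fold and an FDR. Both read counts were deposited raw. The deposited fold (ratio), p-value (upper Poisson tail) and FDR (q-value) of all 16584 islands were recomputed with a factor of 0.345 on the control side and 0.25 reads in place of 0, within a relative 1e-06 for the fold, an absolute 1e-06 for p and 0.01 for the FDR. The sources used here give no library totals. No column is tied to a library, so the planned edgeR fit of genotypes was not run and no p-value was computed for the members.

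Genes and starts came from RefSeq GRCm38.p6, the assembly that mm10 names, and coordinates are 1-based. Ties between gene ends went to the end nearest the middle of the island. Every member is named; those with over 4 islands are given by the gene-end island, the islands of most reads and lowest FDR, and the range of the rest. Members and lists were chosen with earlier results of these data known. Interval and assignment code was tested on simulated data. Python 3.11.15, pandas 2.3.3 and scipy 1.17.1 were used. Protein sequences were not used here. Alternatives covered windows, read minimums, FDR and scaling.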

Additional observations from a re-analysis of the deposited data

How the results depend on the processing

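The scaling of the control side set the level of every fold. With the control side set equal to the peak side over all islands, by summed reads or by the median of the ratios (factors of 0.659 and 0.692 in place of 0.345), the median fold of tetraspanin islands was 1.05 and 0.998 in place of 2.00, the summed fold 0.997 and 0.949 in place of 1.91, and 3 and 3 islands were called in place of 26, those of Cd53 and Cd81 and the one 3.97 kb upstream of Tspan2. Over all islands 9.19% and 6.61% were then called, and both scalings centre the folds near 1 by construction. Called islands whose fold went under 1, by the first and the second scaling, were those of Cd151 (0.776 and 0.739), Tspan13 (0.893 and 0.850), Tspan14 at the gene end (0.875 and 0.833), Tspan18 (0.971 and 0.924, 0.881 and 0.839) and Tspan4 (0.948 and 0.903), and by the second alone the nearer distant island of Cd9 (0.985) and that of Tspan5 (0.975). With at least 20 peak-side reads, 8 members had an island in place of 18, and 8 a gene-end island in place of 16. Of the 10 islands kept, 9 were called. The same counts over all genes at this minimum are not given here. That minimum kept 27.8% of tetraspanin islands and 43.6% of all islands. Gene-end islands alone gave 12 calls (70.6%, beside 80.8% of all gene-end islands) and a median of 19 reads, and 1 island per member gave 15 calls and 18.5 reads, in place of 26 and 16.5, with fewer islands counted by construction. Under a window of 10 kb, no limit on distance, or gene bodies with 1 kb on either side, the count of members with an island was 18 each time. With an FDR under 0.05 or 0.01 in the authors' deposited table it was 15 or 13. Members with a start inside an island were 14, and 14 within 500 bp or 1 kb, 2 alternatives chosen after seeing the data. No paired analysis was possible because no column is tied to a replicate, and leaving out single libraries or a fit per genotype was not run for the same reason.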
